A study of Mus musculus with 18 samples.

Results

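The 10 transcription factor genes described here direct the formation of the mouse lens: *Pax6*, *Prox1*, *Maf*, *Mafg*, *Hsf4*, *Foxe3*, *Pitx3*, *Sox1*, *Sox2* and *Gata3*. They were chosen by symbol and make up 10 of the 40800 genes in the deposited read count table. All 10 were counted in every library, and all 10 passed the filter on low counts that left 13938 genes to test. RNA came from pooled whole lenses of C57BL/6J mice. The 18 libraries fell into 6 groups of 3. The first line carried the R49C mutation knocked into *Cryaa*, the gene of αA-crystallin, and its WT, heterozygous (het) and homozygous (homo) lenses were taken at 2 days of age. The second line carried the R120G mutation knocked into *Cryab*, the gene of αB-crystallin, and its WT, het and homo lenses were taken at 14 days of age. Each line was compared with its own WT group. Line and age changed together, so their effects cannot be told apart. The genotype field of the 6 *Cryab* mutant libraries names the *Cryaa* allele, and these libraries were grouped by their titles. Both alleles are point mutations, and the transcript level of *Cryaa* or *Cryab* therefore does not check the genotype of a library.

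The lens has an anterior epithelium, whose cells divide, and a mass of fibre cells, which leave the cell cycle, elongate, fill with crystallins and lose their organelles. The factors below act in one or both of these cell types. Some are needed in the early eye field, some keep the epithelium, and others switch on the crystallin and structural genes of fibres.

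Positions are from the GRCm38 mouse assembly. *Pax6* (chromosome 2, 105668900 to 105697364, plus strand) encodes a paired-box and homeobox factor needed for the eye field and for the lens epithelium. *Sox2* (chromosome 3, 34650405 to 34652461, plus strand) encodes a partner of PAX6 at lens enhancers, and *Sox1* (chromosome 8, 12395295 to 12400126, plus strand) encodes a related factor that fibres need for γ-crystallin transcription. *Foxe3* (chromosome 4, 114925147 to 114926013, minus strand) encodes a forkhead factor of the epithelium. *Pitx3* (chromosome 19, 46135685 to 46148326, minus strand) encodes a homeobox factor that acts upstream of *Foxe3*.

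The remaining 5 genes are known mainly for their part in fibres. *Prox1* (chromosome 1, 190118035 to 190170714, minus strand) encodes a homeobox factor of cell cycle exit and fibre elongation. *Maf* (chromosome 8, 115682942 to 115707794, minus strand) encodes a leucine zipper activator of crystallin genes, and *Mafg* (chromosome 11, 120625117 to 120633600, minus strand) encodes a small partner without an activation domain. *Hsf4* (chromosome 8, 105269801 to 105275845, plus strand) encodes the heat shock factor of the postnatal lens. *Gata3* (chromosome 2, 9857078 to 9890034, minus strand) encodes a zinc finger factor linked to cell cycle exit in fibres. The exons of *Hsf4* and *Foxe3* overlap no other annotated gene. Those of *Gata3* share 155 bases with the antisense gene *Gm13256* and 77 bases with *9230102O04Rik*, those of *Maf* share 440 bases with the antisense gene *Gm15655*, and those of *Prox1* share 133 bases with the antisense gene *Prox1os*. Those of *Mafg* share 124 bases with *Sirt7*, those of *Sox1* 86 bases with *Gm25239*, and those of *Pitx3* 10 bases with *Elovl3*. The sources used here do not give the strand setting of the counting.

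The count table summed to between 14272174 and 29639719 per library. The 10 factors together took between 0.0296% and 0.116% of a library. Crystallin genes took between 23.8% and 76.1%, as a lens sample should show. The noncoding gene *Gm42418* took between 2.53% and 42.6%. Levels are therefore given as CPM, counts scaled to a common library size, after TMM scaling, a correction that centres the bulk of genes. The TMM factors lay between 1.20 and 2.26 in the *Cryaa* line and between 0.488 and 0.774 in the *Cryab* line. Among the 3 *Cryaa*-WT libraries, replicate 3 had a TMM factor of 2.00, against 1.32 and 1.20 in the others. Replicate 1 of *Cryaa*-R49C-homo held 2.53% *Gm42418* counts and 61.2% crystallin counts, whereas replicates 2 and 3 held 24.5% and 42.6% *Gm42418* and 37.7% and 23.8% crystallin counts. Within *Cryab*-WT, replicate 1 stood apart in retinal markers, with 819 CPM over 8 photoreceptor markers and 33.1 CPM over 8 inner retina and glia markers, against 22.3 and 84.8 CPM and 1.87 and 2.30 CPM in replicates 2 and 3. The mutant groups of that line also held them. Photoreceptor sums were 624, 293 and 99.2 CPM in het and 1220, 625 and 208 CPM in homo libraries. Inner retina and glia sums were 31.5, 18.6 and 7.35 CPM and 64.4, 29.5 and 14.4 CPM. The part of these tissues in the factor levels was not tested. The factors and target genes named as called in *Cryaa*-R49C-homo against WT lenses are also given without homo replicate 1 and without WT replicate 3. For *Crygs* these values are not given. Per the study's methods the libraries of a group are biological replicates, each from several pooled lenses.

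Levels of different genes were compared per length, as RPKM. *Hsf4* and *Maf* held the top 2 places among the 10 factors in all 18 libraries, and *Prox1* held place 3. In *Cryaa*-WT lenses the mean RPKM was 48.0 ± 0.988 (SD, n = 3) for *Hsf4*, 42.1 ± 1.14 for *Maf* and 18 ± 0.88 for *Prox1*, and the ranges of these neighbours did not overlap. The next factors, *Sox1* (9.18 ± 1.36 RPKM), *Pax6* (7.55 ± 3.70), *Mafg* (6.07 ± 0.53), *Sox2* (5.41 ± 1.32), *Pitx3* (5.32 ± 1.28) and *Foxe3* (4.36 ± 1.70), each overlapped their neighbour in the order, so that their order was not resolved. *Gata3* was lowest at 1.24 ± 0.131 RPKM, below the range of *Foxe3*. In *Cryab*-WT lenses *Hsf4* (37.0 ± 2.08 RPKM) again stood above *Maf* (19.4 ± 0.987), which stood above *Prox1* (8.33 ± 0.36), and *Gata3* was again lowest at 0.467 ± 0.136 RPKM. In *Cryaa*-R49C-homo lenses *Maf* (50.1 ± 14.2) and *Hsf4* (39.7 ± 5.81 RPKM) overlapped, *Pitx3* reached 16.7 ± 5.29 RPKM, and *Foxe3* (2.97 ± 0.355) fell below *Gata3* (4.48 ± 0.252) as the lowest factor.

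**Figure D1:**
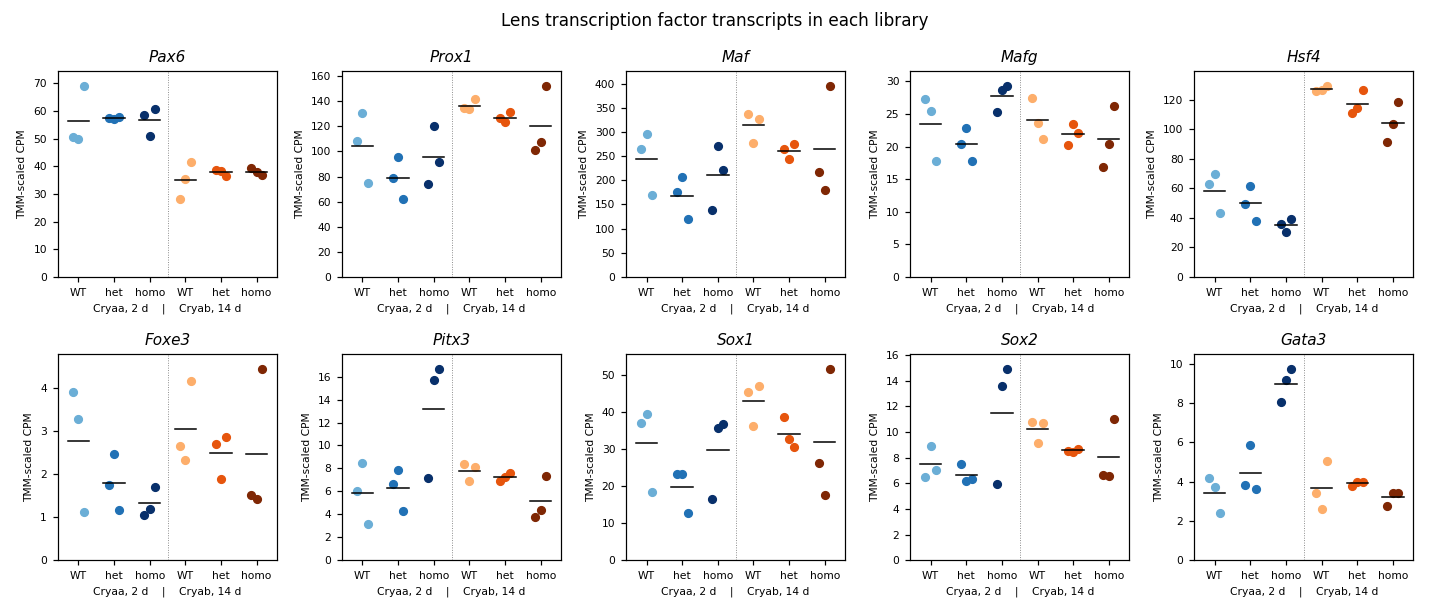
TMM-scaled CPM (vertical axis, from 0) of each of the 10 factors in the 18 libraries, by group (horizontal axis: WT, het and homo of the *Cryaa* line at 2 days in blue, of the *Cryab* line at 14 days in orange). Points are libraries and horizontal bars are means of 3. *Gata3* in *Cryaa*-R49C-homo lenses lay between 8.08 and 9.73 CPM, above every other library, whose highest value was 5.88.

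The first comparison asks how the *Cryaa*-R49C-homo genotype went with the levels of these factors at 2 days. *Gata3* and *Pitx3* transcripts were higher and *Hsf4* transcripts were lower in homo than in WT lenses, and the other 7 factors did not pass the test. That is 3 of 10 factors at an adjusted p of at most 0.05 in edgeR's quasi-likelihood test, where 9.79% of all tested genes passed. That share rests on 1365 genes, which became 3094 without homo replicate 1 and 731 without WT replicate 1. In RNA from whole lenses, fewer cells of a type and less RNA per cell cannot be told apart. *Gata3* and *Hsf4* did not overlap between the groups, as did 24.5% of genes. The median log2 fold change of the 10 factors was -0.05, and the median of all genes was 0. With 3 libraries against 3, an exact two-sided permutation test of a single gene cannot go below p = 0.1, so the tests rest on the fit across all genes.

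*Gata3* (ENSMUSG00000015619) had 4.17, 3.75 and 2.38 CPM in the 3 *Cryaa*-WT libraries and 3.84, 5.88 and 3.61 CPM in the *Cryaa*-R49C-het libraries. It had 8.08, 9.20 and 9.73 CPM in the *Cryaa*-R49C-homo libraries, from 256 to 367 counts each. All 3 homo libraries thus lay above all WT and het libraries. The change from WT to homo was 2.62-fold (log2 fold change 1.39, SE 0.26, adjusted p = 0.0011). It was called in all of the alternative settings and with each library left out, with log2 fold changes between 1.18 and 1.85. Without WT replicate 3 it was 1.18 (adjusted p = 0.0126), and without homo replicate 1 it was 1.46 (0.000326). T cells also express *Gata3*. Of 4 T cell markers, *Cd3e* had no counts in any library, and the sum of the 4 did not exceed 0.348 CPM in the *Cryaa* line, with 0.114 to 0.345 CPM in homo libraries. Macrophage markers were above all WT libraries in all 3 homo libraries (13, 23.7 and 25.7 CPM against 5.40 to 12.7 CPM), and their part in the *Gata3* value was not tested, nor was that of the vessel and mesenchyme markers given with *Pitx3*.

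*Pitx3* (ENSMUSG00000025229) had 6.05, 8.44 and 3.12 CPM in WT, 6.62, 7.87 and 4.31 CPM in het, and 7.20, 15.7 and 16.6 CPM in homo libraries. Homo replicates 2 and 3 lay above all other libraries, while homo replicate 1 lay within the range of WT and het. The change was 2.24-fold (log2 fold change 1.16, SE 0.34, adjusted p = 0.0297). Without homo replicate 1 the log2 fold change was 1.46 (adjusted p = 0.00167). The call was lost without WT replicate 1 (adjusted p = 0.0886), WT replicate 3 (0.145), homo replicate 2 (0.115) or homo replicate 3 (0.113), and when the 9 libraries of the line were fitted alone (0.0827). Markers of vessels and mesenchyme summed to 18.9 CPM in homo replicate 1 and to 63.2 and 56.9 CPM in replicates 2 and 3, against 18.3 to 33.5 CPM in WT, and 1 of 6 markers (*Cdh5*) rose. Of the 6 macrophage markers, 2 rose (*Aif1* and *C1qa*). The part of these cells in the *Pitx3* values was not tested. Muscle, which also expresses *Pitx3*, gave 2.51 to 3.50 CPM over 6 markers in homo lenses and 1.62 to 27.1 CPM in WT lenses.

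*Hsf4* (ENSMUSG00000033249) had 62.8, 69.4 and 43.1 CPM in WT, 49.7, 61.8 and 37.7 CPM in het, and 35.7, 30.2 and 39.3 CPM in homo libraries. All homo libraries lay below all WT libraries, and het libraries overlapped both. *Hsf4* was 1.67-fold lower in homo lenses (log2 fold change -0.74, SE 0.22, adjusted p = 0.0333). In RPKM, which carries no TMM factor, WT lay between 47.3 and 49.1 and homo between 34.7 and 46.0. Without homo replicate 1 the log2 fold change was -0.75 (adjusted p = 0.015) and without WT replicate 3 it was -0.92 (0.0143). The call was lost with scaling by library size alone (log2 fold change -0.27, adjusted p = 0.367), within the line (0.121), with a filter of 1 count in any library (0.0833), with TMM factors computed without crystallin genes and *Gm42418* (0.0506), and without WT replicate 1 (0.124), WT replicate 2 (0.159) or homo replicate 2 (0.13). Lens fibre markers were also lower: 5 of the 8 tested fell, and the list summed to 1200 to 1820 CPM in homo against 3160 to 5110 CPM in WT. Of its 9 genes, *Lim2* had no counts in any library. The part of these cell types in the *Hsf4* value was not tested.

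Among the factors that did not pass, *Sox2* had 5.96, 13.6 and 14.9 CPM in homo and 6.51 to 8.94 CPM in WT libraries (log2 fold change 0.61, SE 0.27, adjusted p = 0.161). Its homo values split as those of *Pitx3* did, with replicate 1 lowest, and without that library the log2 fold change was 0.92 (adjusted p = 0.00262). *Foxe3* had 1.06 to 1.71 CPM in homo and 3.92, 3.27 and 1.12 CPM in WT libraries, from 32 to 97 counts (log2 fold change -1.07, SE 0.44, adjusted p = 0.135). Without WT replicate 3, the lowest WT value, it was -1.46 (adjusted p = 0.0385), and without homo replicate 1 it was -0.93 (0.22). Lens epithelium markers summed to 74.5 to 110 CPM in homo and 182 to 268 CPM in WT, and 2 of the 5 fell (*Clu* and *Gja1*). *Mafg* had 25.4 to 29.3 CPM in homo and 17.8 to 27.3 CPM in WT lenses (log2 fold change 0.24, SE 0.21, adjusted p = 0.53).

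*Pax6*, *Prox1*, *Maf* and *Sox1* gave log2 fold changes of 0.01 (95% interval -0.39 to 0.40), -0.13 (-0.63 to 0.36), -0.21 (-0.81 to 0.40) and -0.10 (-0.86 to 0.66). The intervals of *Maf* and *Sox1* reach past the value seen for *Hsf4*, and those of *Pax6* and *Prox1* do not. *Pax6* lay at 51.0 to 60.7 CPM in homo and 50.0 to 69.1 CPM in WT lenses. With scaling by library size alone, the median of all genes moved to 0.41, and *Mafg*, *Pitx3*, *Sox2* and *Gata3* were called higher and no factor lower. In that scaling 88.1% of the called genes were higher, against 49.7% with TMM.

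**Figure D2:**
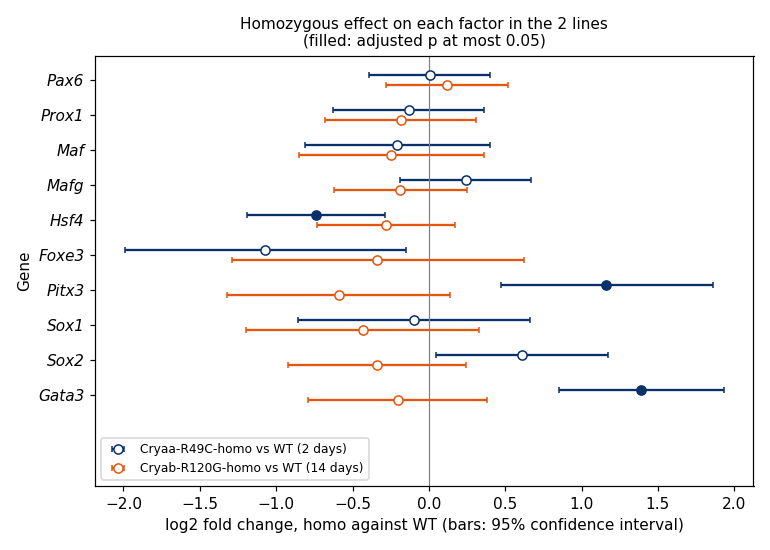
Log2 fold change of homo against WT lenses (horizontal axis) for each factor (vertical axis), with 95% confidence intervals, in the *Cryaa* line at 2 days (blue) and the *Cryab* line at 14 days (orange). Filled points have an adjusted p of at most 0.05: *Hsf4* at -0.74, *Pitx3* at 1.16 and *Gata3* at 1.39 in the *Cryaa* line, and none in the *Cryab* line.

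The homo lenses were also compared with the het lenses of the same line. *Gata3* (log2 fold change 1.02, SE 0.26, adjusted p = 0.0159) and *Pitx3* (1.07, SE 0.33, adjusted p = 0.0487) were higher in homo lenses, which is 2 of 10 factors, where 8.32% of all genes passed. *Gata3* and *Mafg* did not overlap between these groups, as did 22% of genes. *Mafg* had 17.8 to 22.8 CPM in het lenses and did not pass (log2 fold change 0.45, adjusted p = 0.193). Leaving out het replicate 1, het replicate 3, homo replicate 2 or homo replicate 3 ended both calls, with adjusted p for *Gata3* between 0.0542 and 0.104, and leaving out het replicate 2 ended that of *Pitx3* (0.066). The *Pitx3* call was also lost with RLE factors (0.0542), with TMM factors computed without crystallin genes and *Gm42418* (0.052) and with the line fitted alone (0.115). This comparison shares the homo libraries with the first.

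No factor passed in *Cryaa*-R49C-het against WT lenses, where 0.00717% of all genes did, and at an unadjusted p under 0.05 the counts were 0 of 10 factors and 708 of 13938 genes. Log2 fold changes lay between -0.69 for *Sox1* (95% interval -1.45 to 0.08) and 0.37 for *Gata3* (-0.17 to 0.91). No factor separated the 2 groups, where 21.9% of genes did. DESeq2 and limma-voom also called 0 of the 10.

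In the *Cryab* line at 14 days none of the 10 factors passed in any comparison of genotypes. Against WT, 0.00717% of all genes passed in het lenses and 0.0502% in homo lenses, and none passed between homo and het. At an unadjusted p under 0.05 there were 0 of 10 factors in each of the 3 comparisons, against 532, 851 and 273 genes, and DESeq2 and limma-voom also called 0 factors. In homo against WT lenses the same replicate numbers deviated together, and a fit with the number as a block called 18 genes in place of 7, with no factor among them.

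*Hsf4* had 126, 127 and 129 CPM in *Cryab*-WT, 111, 114 and 127 CPM in het and 91.2, 104 and 119 CPM in homo libraries. All homo values lay below all WT values, as 9% of genes did in one direction or the other, and the log2 fold change was -0.28 (95% interval -0.73 to 0.17, adjusted p = 0.943). *Prox1*, *Maf* and *Sox2* were below WT in all het libraries, where 10.1% of genes did not overlap, with log2 fold changes of -0.10, -0.26 and -0.25. *Pitx3* had 8.37, 6.87 and 8.08 CPM in WT and 3.80, 4.40 and 7.34 CPM in homo libraries (log2 fold change -0.59, 95% interval -1.32 to 0.14). *Gata3* had 3.41, 2.60 and 5.04 CPM in WT and 2.75, 3.41 and 3.44 CPM in homo libraries (-0.20, 95% interval -0.79 to 0.38). It lay below het in all homo libraries, where 6.86% of genes did not overlap. In homo replicate 3 every factor except *Pax6* had its highest value of the homo group, for example *Maf* at 395 CPM and *Sox1* at 51.4 CPM.

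Whether the homo effect differed between the lines was tested as an interaction, which compares the R49C effect at 2 days with the R120G effect at 14 days. *Gata3* passed: its homo effect was lower in the *Cryab* line by 1.59 on the log2 scale (SE 0.38, adjusted p = 0.0231), 1 of 10 factors where 2.91% of genes passed. The call was lost without *Cryaa*-WT replicate 3 (adjusted p = 0.0717), *Cryab*-WT replicate 3 (0.108) or *Cryab*-R120G-homo replicate 1 (0.0734). *Pitx3* gave -1.75 (SE 0.49, adjusted p = 0.0528), and with the replicate number as a block it passed at -1.84 (0.0285). It was called in 5 of 7 alternative settings. *Sox2* gave -0.95 (SE 0.39, adjusted p = 0.225). Without *Cryaa*-R49C-homo replicate 1 both passed, at -2.05 (0.00333) and -1.27 (0.00558). *Hsf4* gave 0.45 (95% interval -0.18 to 1.09), so that its decrease in the *Cryaa* line was not shown to differ from the value in the *Cryab* line. Allele, line and age cannot be told apart in this difference.

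The WT groups of the lines give the levels at 2 and 14 days in lenses without either mutation. *Hsf4* was 2.18-fold higher at 14 days, from a mean of 58.4 ± 13.7 CPM to 127 ± 1.87 CPM (SD, n = 3, log2 fold change 1.12, SE 0.22, adjusted p = 0.000854). *Pax6* (ENSMUSG00000027168) was 1.61-fold lower, from 50.5, 50.0 and 69.1 CPM to 28.1, 35.5 and 41.5 CPM (log2 fold change -0.69, SE 0.19, adjusted p = 0.0125). The groups did not overlap for either gene. Lens fibre markers rose with *Hsf4*, 5 of the 8 tested, from a sum of 3160 to 5110 CPM to one of 13500 to 15900 CPM, and their part in the *Hsf4* difference was not tested. These were 2 of 10 factors, where 23.2% of genes passed. The *Pax6* call was lost without *Cryaa*-WT replicate 3 (adjusted p = 0.0971) or *Cryab*-WT replicate 1 (0.0681), and *Hsf4* was called with each of the 6 libraries left out. Inner retina and glia, which also express *Pax6*, gave 31.7 to 87.2 CPM over 8 markers in *Cryaa*-WT and 1.87 to 33.1 CPM in *Cryab*-WT lenses, and 3 of the 7 tested fell. Pigment and ciliary epithelium, which expresses *Pax6* too, gave 18.6 to 36 CPM and 6.6 to 8.31 CPM over 8 markers, of which 5 fell. Lens epithelium markers summed to 182 to 268 CPM in *Cryaa*-WT and 1090 to 1420 CPM in *Cryab*-WT lenses. Of these 5 markers 2 rose and 1 fell, with a median log2 fold change of 0.2. The part of these tissues in the *Pax6* difference was not tested.

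*Prox1* (74.9 to 131 CPM at 2 days, 134 to 142 at 14 days) and *Sox2* (6.51 to 8.94 and 9.13 to 10.8 CPM) were higher in all 14-day WT libraries, but with log2 fold changes of 0.38 and 0.44 neither passed (adjusted p = 0.261 for each). A total of 43.2% of genes did not overlap between the ages. *Maf*, *Mafg*, *Foxe3*, *Pitx3*, *Sox1* and *Gata3* overlapped, with log2 fold changes between 0.03 and 0.44. All of these values are relative to the bulk of genes. With library size alone the median gene moved from -0.07 to -1.61, and 9 factors were called lower, with *Hsf4* at -0.37 (adjusted p = 0.0787). *Hsf4* was thus 1.19 above the median gene with TMM and 1.24 above it with library size alone, while *Pax6* was 0.62 and 0.69 below it.

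**Figure D3:**
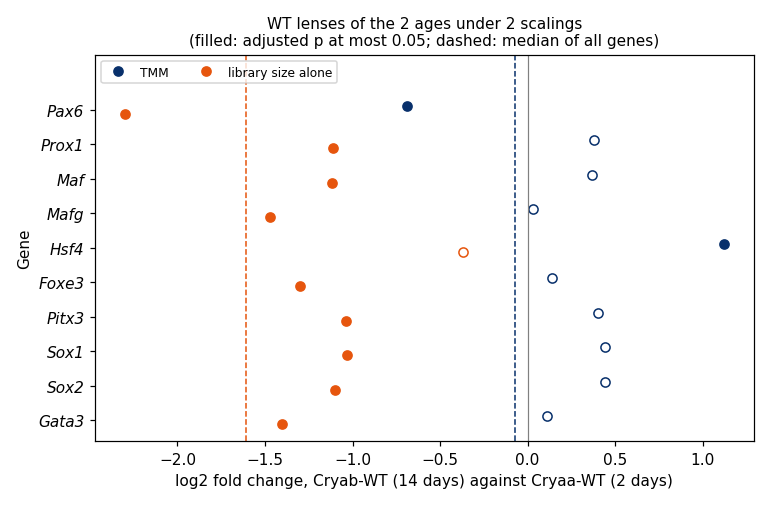
Log2 fold change of *Cryab*-WT (14 days) against *Cryaa*-WT (2 days) lenses (horizontal axis) for each factor (vertical axis) with TMM scaling (blue) and with library size alone (orange). Filled points have an adjusted p of at most 0.05, and dashed lines are the medians of all genes, -0.07 and -1.61. *Hsf4* lies farthest to the right and *Pax6* farthest to the left under both scalings.

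Genes that these factors are known to regulate were followed as lists. HSF4 binds heat shock elements, and its targets in the lens include the small heat shock protein gene *Hspb1*, the beaded filament gene *Bfsp1* and *Dnase2b*, whose enzyme degrades fibre nuclei. In *Cryaa*-R49C-homo against WT lenses 3 of the 5 tested HSF4 targets fell and none rose, with a median log2 fold change of -1.70, where 9.79% of all genes passed. The lens fibre markers given with *Hsf4* moved the same way (5 of 8 lower, median log2 fold change -1.51), but *Bfsp1* and *Bfsp2* are in both lists. The part of fibre cells in the values of these targets and of the crystallin genes was not tested. *Hspb1* had 13.4, 19.3 and 5.32 CPM in WT and 0.132, 0.22 and 0.532 CPM in homo libraries, the latter from 6 to 14 counts. It was 45.6-fold lower (log2 fold change -5.51, SE 0.53, adjusted p = 1.07e-06). *Bfsp1* went from 1030, 1150 and 538 CPM to 106, 273 and 201 CPM (-2.23, SE 0.35, adjusted p = 0.000158). *Dnase2b* went from 58.1, 69.3 and 46.4 CPM to 34.9, 21.8 and 13.2 CPM (-1.31, SE 0.29, adjusted p = 0.00487), and with library size alone it no longer passed. WT and homo libraries did not overlap for these 3 genes, as for 24.5% of all genes. Without homo replicate 1 the log2 fold changes of *Hspb1*, *Bfsp1* and *Dnase2b* were -5.10, -1.94 and -1.73, and without WT replicate 3 they were -5.88, -2.50 and -1.45, and all of these passed. *Bfsp2* (-1.70, adjusted p = 0.131) and *Cryab* (-0.33, adjusted p = 0.489) did not pass, and *Fgf7* had too few counts to test. In het lenses *Hspb1* stood at 11.8, 24.9 and 15.3 CPM, within reach of WT.

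The heat shock elements near the start sites of *Hspb1* and *Dnase2b* are shown because these are the HSF4 targets of the list that carry them. Sequences are the RefSeq promoters of GRCm38.p6, 250 bases before to 50 bases after a start site. They were searched for GAANNTTC, whose letters read alike on both strands, and 7.86% of the 32851 promoters hold it. Among the 5 HSF4 targets in the RefSeq table, *Hspb1* holds 2 such elements, beginning 117 and 97 bases before the start site, and *Dnase2b* holds 1, at 230 bases. *Bfsp1*, *Bfsp2* and *Fgf7* hold none in this window, and *Cryab* was not in the table. Capitals mark the elements, and each sequence ends at the base before the start site.
*Hspb1* (chr5:135887769-135887918, plus strand): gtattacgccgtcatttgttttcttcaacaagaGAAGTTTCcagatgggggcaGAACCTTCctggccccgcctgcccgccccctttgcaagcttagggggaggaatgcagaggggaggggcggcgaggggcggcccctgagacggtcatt
*Dnase2b* (chr3:146615599-146615848, minus strand): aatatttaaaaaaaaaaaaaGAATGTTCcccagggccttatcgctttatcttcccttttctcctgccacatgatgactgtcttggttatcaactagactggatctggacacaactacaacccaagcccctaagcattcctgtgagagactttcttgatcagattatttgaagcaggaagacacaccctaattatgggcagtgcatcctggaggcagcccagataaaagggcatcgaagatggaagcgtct

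Of the 10 factors 8 were in the promoter table, with 10 start sites, and *Maf* and *Hsf4* were not. None of these promoters holds a heat shock element, the GATA site AGATAA (in 11.2% of all promoters) or the PITX site TAATCC (7.06%). The core of the Maf recognition element, TGCTGA, searched on both strands and present in 19.5% of promoters, occurs in those of *Gata3* and *Sox2*. The SOX sites ACAAAG and ACAATG, of which 28.6% of promoters hold at least 1, occur in that of *Sox2* and at 1 start site each of *Pax6* and *Prox1*. The *Gata3* sequence is shown because *Gata3* was called in *Cryaa*-R49C-homo against WT lenses in every setting run, with the TGCTGA in capitals.
*Gata3* (chr2:9878601-9878750, minus strand): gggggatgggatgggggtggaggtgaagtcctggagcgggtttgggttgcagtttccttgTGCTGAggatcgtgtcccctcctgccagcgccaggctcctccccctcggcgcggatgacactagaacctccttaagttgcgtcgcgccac

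**Figure D4:**
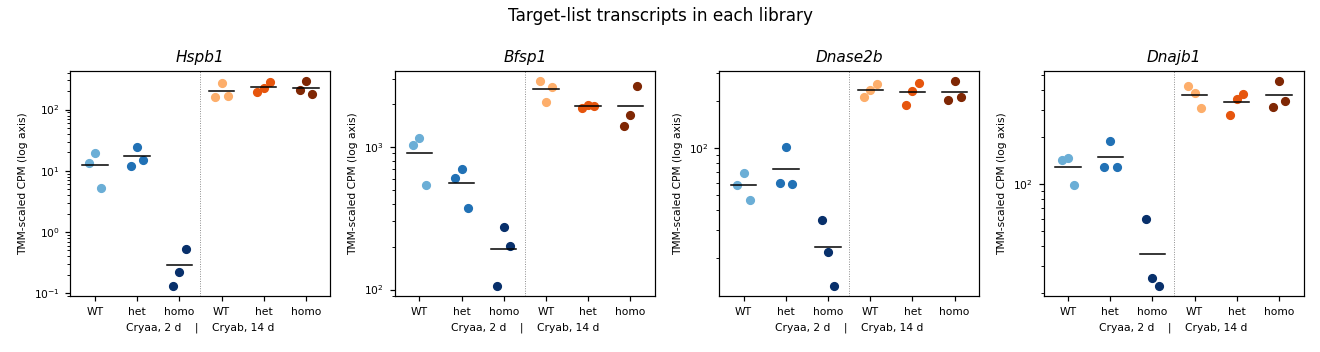
TMM-scaled CPM (vertical log axis) of *Hspb1*, *Bfsp1*, *Dnase2b* and *Dnajb1* in the 18 libraries, by group (horizontal axis: WT, het and homo of the *Cryaa* line at 2 days in blue and the *Cryab* line at 14 days in orange). Points are libraries and horizontal bars are means of 3. The 3 *Cryaa*-R49C-homo libraries lie below all other libraries for each gene, with *Hspb1* at 0.132 to 0.532 CPM against at least 5.32 CPM elsewhere.

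Targets of the other factors were followed in the same comparison, in lists that share some genes with each other. Of 15 crystallin genes, 4 fell and none rose (median log2 fold change -0.76), and with library size alone 1 fell. By adjusted p these were *Crygb* at -1.57 (adjusted p = 0.000766), *Crygc* at -0.95 (0.0265), *Crybb1* at -0.86 (0.0429) and *Crygs* at -0.94 (0.0431), the last named after its value was seen. *Crygc* lost the call in 6 and *Crybb1* in 7 of 13 alternatives, among them the line alone, library size alone and leaving out WT replicate 1, WT replicate 2 or homo replicate 3. *Crygs* also lost it with library size alone. *Crygb*, *Crygc* and *Crybb1* passed without homo replicate 1 (-1.62, -0.81 and -1.17) and without WT replicate 3 (-1.76, -1.16 and -1.04). Of the 6 MAF and MAFG targets, 2 fell, and these were *Hspb1* and *Crybb1*, which other lists also hold. Among the 4 FOXE3 targets *Dnajb1*, which encodes a co-chaperone, fell (-1.86, SE 0.31, adjusted p = 0.000346). Neither PITX3 target passed, with *Mip*, the water channel of fibres, at -0.53 (adjusted p = 0.132) and *Foxe3* as above. Of the 7 PROX1 and GATA3 targets 2 fell and none rose. These were *Crygb* and the FGF receptor gene *Fgfr3* (-1.27, SE 0.30, adjusted p = 0.00825). *Dnajb1* and *Fgfr3* passed without homo replicate 1 (-2.46 and -0.96) and without WT replicate 3 (-2.02 and -1.45). With library size alone 1 gene also rose among the FOXE3 targets and 1 among the PROX1 and GATA3 targets. Each of these counts is read against 9.79% of all genes.

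In the *Cryab* line no gene of these lists passed in either genotype against WT. The homo effect differed between the lines for *Hspb1* (5.72 on the log2 scale, SE 0.65, adjusted p = 3.56e-05), *Bfsp1* (1.83, SE 0.47, adjusted p = 0.0344) and *Dnajb1* (1.85, SE 0.43, adjusted p = 0.0174), each higher in the *Cryab* line. The last 2 calls were lost in 7 and 6 of the 19 alternatives. Between WT lenses of 2 and 14 days, 15 of 15 crystallin genes and 4 of the 5 HSF4 targets were higher at 14 days, where 11.7% of all genes were. Lens fibre markers, which share *Bfsp1* and *Bfsp2* with the HSF4 list, moved the same way (5 of 8 higher, median log2 fold change 1.57). The part of fibre cells in these values was not tested. *Hspb1* differed by 3.97 (SE 0.44, adjusted p = 3.45e-06), *Cryab* by 2.49 (SE 0.28, adjusted p = 1.58e-06) and *Dnase2b* by 2.01 (SE 0.29, adjusted p = 4.43e-05). With library size alone 6 of the 15 crystallin genes and 2 of the 5 HSF4 targets were still called higher. *Hspb1* and *Cryab* were among these, and *Dnase2b*, at 0.50, was not. Without *Cryab*-WT replicate 1 the counts were again 15 and 4.

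Of 29 other regulators of lens development, 28 were tested and *Mafa* had too few counts. In *Cryaa*-R49C-homo against WT lenses 1 of the 28 rose, the Notch effector gene *Hey1* (log2 fold change 0.88, SE 0.25, adjusted p = 0.0263), and none fell, where 9.79% of all genes passed. With library size alone 4 of the 28 rose. Leaving out any 1 of the WT libraries ended that call, with 0.78 (adjusted p = 0.112) without WT replicate 3, and without homo replicate 1 it was 0.68 (0.0488). None of the 28 passed in het lenses or in any genotype comparison of the *Cryab* line. Between the WT groups 2 of the 28 were higher and 5 lower at 14 days, a share close to the 23.2% of all genes that passed. With library size alone 24 were lower and none higher. The 2 higher genes, named after their values were seen, were the small MAF genes *Mafk* (log2 fold change 1.48, adjusted p = 0.0119) and *Maff* (3.27, adjusted p = 0.0263). *Maff* had 11.7 CPM in *Cryab*-WT replicate 1, but 0.20 and 0.297 CPM in replicates 2 and 3 and 0.255 to 0.525 CPM in *Cryaa*-WT. Without *Cryab*-WT replicate 1 neither passed, with *Mafk* at 1.18 (adjusted p = 0.0593) and *Maff* at -0.68 (0.475), and 6 of the 28 were lower and none higher. Leaving out *Cryaa*-WT replicate 3 also ended both calls (0.0657 and 0.0781), and leaving out *Cryaa*-WT replicate 1 or 2 ended that of *Maff* (0.0904 and 0.0778). *Sox11*, a SOX gene of immature cells, was 46.5-fold lower (-5.54, SE 0.58, adjusted p = 2.98e-06), *Lef1*, a mediator of Wnt signalling, was 11.4-fold lower (-3.51, SE 0.45, adjusted p = 9.06e-06), and the homeobox gene *Meis1* was 3.17-fold lower (-1.67, SE 0.28, adjusted p = 0.000173). *Sox11* had 12.4, 12.6 and 31 CPM in the *Cryaa*-WT libraries, whose inner retina and glia markers summed to 39.1, 31.7 and 87.2 CPM. *Sox11*, *Lef1* and *Meis1* passed without *Cryab*-WT replicate 1 (-5.46, -3.87 and -1.62). Photoreceptor markers went the other way, with 5 of 8 higher at 14 days and sums of 8.17 to 34 CPM at 2 days and 22.3 to 819 CPM at 14 days. Markers of vessels and mesenchyme (4 of 6 lower, 18.3 to 33.5 CPM against 8.07 to 11 CPM) and of macrophages (6 of 6 lower, 5.40 to 12.7 CPM against 0.20 to 2.09 CPM) were lower at 14 days. The part of these tissues in the differences was not tested.

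Finally, the factors were compared by how their levels ran together, as the Pearson r of log2 CPM over 18 libraries after each line was centred on its mean. These points share libraries, TMM factors and genotype groups, and r is given as a description. Over the 45 pairs of factors r ran from -0.62 to 0.96, with a median of 0.47. *Maf* and *Sox1* were most alike (r = 0.96), followed by *Prox1* and *Maf* (0.94). *Pitx3* ran with *Sox2* (0.83), *Mafg* and *Gata3* (0.81 each), and *Hsf4* ran with *Foxe3* (0.81). *Hsf4* and *Gata3* gave -0.34, but the sign differed between the lines, with -0.46 within the *Cryaa* line and 0.42 within the *Cryab* line. Within the *Cryaa* line *Pitx3* and *Gata3* gave 0.87 and within the *Cryab* line 0.53. Among all 13938 genes the closest to *Gata3* were *Nupr1* (0.93), a stress-induced chromatin protein gene, and *Rps19bp1* (0.91). For *Nupr1* the value was 0.98 within the *Cryaa* line and 0.48 within the *Cryab* line. The closest to *Hsf4* were *Emilin2* (0.94) and *Dnmbp* (0.92), those to *Pitx3* were *2300009A05Rik* (0.95) and *Inf2* (0.94), and those to *Foxe3* were *Rps6ka2* (0.90) and *Inpp5a* (0.89). *Prox1* was closest to *Crim1* (0.95) and *Maf*, *Maf* to *Mtor* and *Sox1* (0.96 each), *Sox1* to *Maf* and *Ube2m* (0.95), *Mafg* to *Adamtsl4* (0.94) and *Sall1* (0.93), *Sox2* to *Mllt4* and *Ncor1* (0.93 each), and *Pax6*, with the lowest likeness, to *Zfp963* (0.81) and *Cnksr2* (0.79).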

How the data were processed

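Poly-A RNA from pooled lenses was read as single 50-base reads. Per the submitters' processing notes, reads were handled with CASAVA 1.8, STAR 2.0.4b and featureCounts 1.4.5 on GRCm38; the strand setting of the counting is not given in the sources used here. The deposited counts are unnormalized reads per gene. The RPKM values deposited by the authors are those counts divided by library total and gene length, without a TMM factor. Deposited CPM and moderated log2 CPM tables were not used. Of 41422 lines, 622 repeat an Ensembl identifier and were dropped.

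Genes were filtered with filterByExpr (minimum count 10), scaled with TMM and fitted in 1 model of 6 groups with edgeR 4.0.16 (quasi-likelihood, robust) in R 4.3.3, with Benjamini-Hochberg adjustment over 13938 genes at 0.05. The study's wider filter (1 count in any library, 26547 genes) was an alternative, and it adds many genes with almost no counts. It was not the main filter because in an earlier fit with it every gene took the trend variance in place of its own. Log2 CPM used a prior count of 2. Other alternatives were RLE and library-size scaling, TMM without crystallins and *Gm42418*, each line alone, a replicate block, DESeq2 1.42.0, limma 3.58.1 (voom with sample weights) and leaving out each library. The pipeline was tested on simulated data. Replicate numbers are not stated to mark pairs. By the lowest r of the 3 pairs they deviated together most for *Cryab*-R120G-homo and WT (r of 0.28, 0.18 and 0.16 across genes). Positions came from GENCODE vM21 and promoters from RefSeq (GRCm38.p6). Named genes were the 10 factors, at most 3 of each list per comparison by adjusted p, and the 2 genes most like each factor; *Bfsp2*, *Cryab* and *Mip* in the homo lenses were named after their values were seen. The factors and lists were chosen with earlier results of these data known.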

Additional observations from a re-analysis of the deposited data

Results flagged for a closer look

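The homo effect of 4 genes differed between the *Cryaa* line at 2 days and the *Cryab* line at 14 days. They are from the factors and the target and regulator lists. The test was an interaction term in edgeR's quasi-likelihood test, which 2.91% of all genes passed. The difference, *Cryab* line minus *Cryaa* line on the log2 scale, was -1.59 for *Gata3* (adjusted p = 0.0231), 5.72 for *Hspb1* (3.56e-05), 1.83 for *Bfsp1* (0.0344) and 1.85 for *Dnajb1* (0.0174). Of 19 alternatives *Hspb1* passed in 19, *Dnajb1* in 13 and *Bfsp1* in 12. *Gata3* lost the call without *Cryaa*-WT replicate 3, *Cryab*-WT replicate 3 or *Cryab*-R120G-homo replicate 1. In the *Cryaa* line *Gata3* was higher in 3 of 3 homo libraries than in any WT library, and *Hspb1*, *Bfsp1* and *Dnajb1* were lower in 3 of 3. Allele and age cannot be told apart in these differences.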

How the results depend on the processing

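The number of the 10 factors called in *Cryaa*-R49C-homo against WT lenses was 3, but 1 with the line fitted alone and 5 with limma-voom, and 1 to 4 with a library left out. Against het it was 2, but 1 with RLE factors, with TMM without crystallins and *Gm42418*, or with the line alone, 5 with limma-voom, and 0 to 3 with a library left out. Between the WT groups it was 2, 9 with library size alone and 1 to 2 with a library left out. For the difference between the lines it was 1, but 2 with the wider filter, library size alone, the replicate block or DESeq2, 3 with limma-voom, and 0 to 3 with a library left out. Replicate numbers are not stated to mark pairs. Across genes the same numbers gave r of 0.28, 0.18 and 0.16 for *Cryab*-R120G-homo and WT libraries. For *Cryaa*-R49C-het and WT libraries r was -0.05, 0.33 and 0.48. The block changed no other factor's call than that of *Pitx3* in the difference between the lines.

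With library size alone the WT difference turned for *Prox1* (-1.11), *Maf* (-1.12), *Mafg* (-1.47), *Hsf4* (-0.37), *Foxe3* (-1.30), *Pitx3* (-1.04), *Sox1* (-1.03), *Sox2* (-1.10) and *Gata3* (-1.40), where the median gene moved to -1.61. *Mafg* also turned with the wider filter (-0.02) and limma-voom (-0.13). With a library left out, *Mafg* ran from -0.14 to 0.15, *Foxe3* from -0.24 to 0.47 and *Gata3* from -0.21 to 0.31. In all, 95 of 1160 values of the factors changed sign, 32 of them with library size alone.

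Over all genes, *Cryaa*-R49C-homo against WT gave 1365 calls, 2138 with library size alone, 4062 with limma-voom, 3094 without homo replicate 1, and 731, 776 and 823 without WT replicate 1, WT replicate 2 and homo replicate 2. Against het, 1160 became 677 with the line alone and 4705 with limma-voom, 4131 without homo replicate 1 and 453 to 600 without any other library, and the share of higher calls went from 56.4% to 79.9% with library size alone. *Cryaa*-R49C-het gave 1 call, 17 with the wider filter, 309 with limma-voom 0 with the line alone or without crystallins, and 0 to 2 with a library left out. *Cryab*-R120G-het gave 1, 140 with the wider filter, 12 with DESeq2, 3 with the block, 0 with the line alone and 0 to 3 with a library left out. *Cryab*-R120G-homo gave 7, 302 with the wider filter, 18 with the block, 19 with DESeq2 and 38 with limma-voom, and 1 to 13 with a library left out, and homo against het gave 0 and 15 with the wider filter. In that homo against WT comparison the share of higher calls was 57.1%, 87.5% with library size alone. The WT groups gave 3237, 11593 with library size alone (1.35% higher, against 50.5%) and 1782 without *Cryaa*-WT replicate 3. The difference between the lines gave 406, 798 with the wider filter, 256 with library size alone, 646 with DESeq2, 2188 with limma-voom, 1800 without *Cryaa*-R49C-homo replicate 1 and 243 to 448 without any other library. Except where the scaling moved the median gene, the cause was not tested. The lowest counts, 23 to 97 a library for *Foxe3* and 31 to 68 for *Gata3* in *Cryab*-WT, limit those values.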
